A study of Mus musculus with 6 samples.

Results

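The genes described here are 10 transcripts of growth factor signalling in muscle stem cells: the FGF receptors Fgfr1 and Fgfr4, the ligand Fgf2, the receptor Met and its ligand Hgf, and the intracellular brakes Spry1, Spry2, Spry4, Spred1 and Dusp6. They were taken by gene name from the annotation of the arrays, where all 10 were present with 16 of 55681 non-control probes. The array carries 32275 gene names in all, a count that takes in some labels that are not gene symbols. Of the 10, 8 gave a signal that could be tested, and Fgf2 and Hgf did not. Satellite cells, which are muscle's resident stem cells, came from 2 groups of C57BL6 mice, 3 with Rpt3 knocked out specifically in satellite cells and 3 controls, and were isolated by sorting, and 3 arrays per group were hybridized with material amplified from 5 ng of RNA each. Psmc4 encodes Rpt3, one of the ATPases that unfold proteins for the proteasome. The labels give neither the Cre driver, the deleted part of Psmc4 and the genotype of the controls, nor the age and sex of the mice and the surface markers used for sorting.

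FGF and HGF are extracellular signals that wake satellite cells and drive their division. FGF2 binds FGF receptors together with heparan sulphate chains, HGF is stored in the matrix as a precursor and binds MET, and each receptor feeds the RAS-ERK kinase cascade. Sprouty and SPRED proteins are induced by the cascade and damp it, DUSP6 is the phosphatase that removes the activating phosphates of ERK, and Spry1 is known for returning mouse satellite cells to quiescence.

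Values are log2 of the background-corrected signal minus the 75th percentile of the array, so 0 is the 75th percentile of the array's own spots. Differences are knockout minus control on that log2 scale. A probe's level depends on its sequence, so levels are compared between arrays and not between genes. Summed levels of marker genes weight the brighter probes more, and they too are compared between arrays. Psmc4 itself was lower on every knockout array, at 2.004, 2.02 and 1.52 against 2.89, 2.58 and 2.84 (difference -0.92, SE 0.23, limma, adjusted p = 0.406), where the probe may or may not lie in the deleted part. Between 44.2% and 57.9% of probes were well above background on an array. Knockout 3 had the fewest and stood apart on the first principal component, at 72.4 against -24.0 to -4.09 for the other arrays. Slide row 1 held knockout 1 and 2, while the 3 controls shared slide row 2 with knockout 3, so a comparison within a slide row rests on knockout 3 alone and assumes that it varies like the other arrays.

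No member passed the threshold, an adjusted p of 0.05 over all 19300 tested features. Of the 8 measured, 0 were called in either direction, where 0% of all features were called. At an unadjusted p under 0.05, 1 of 8 differed (Fgfr4, lower), beside 4.29% of all features lower, 2.81% higher and 7.10% in either direction. The groups did not overlap for 2 of 8, Fgfr4 and Spry1, which were lower in the knockout, beside 5.72% of all features lower and 10.6% in either direction. None of the 8 was higher on every knockout array, beside 4.90% of all features. The mean was higher in 4 and lower in 4 of the 8, with a median difference of -0.052 beside 0.041 over all features. In bulk samples, fewer cells of a type and less RNA per cell cannot be told apart.

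**Figure D1:**
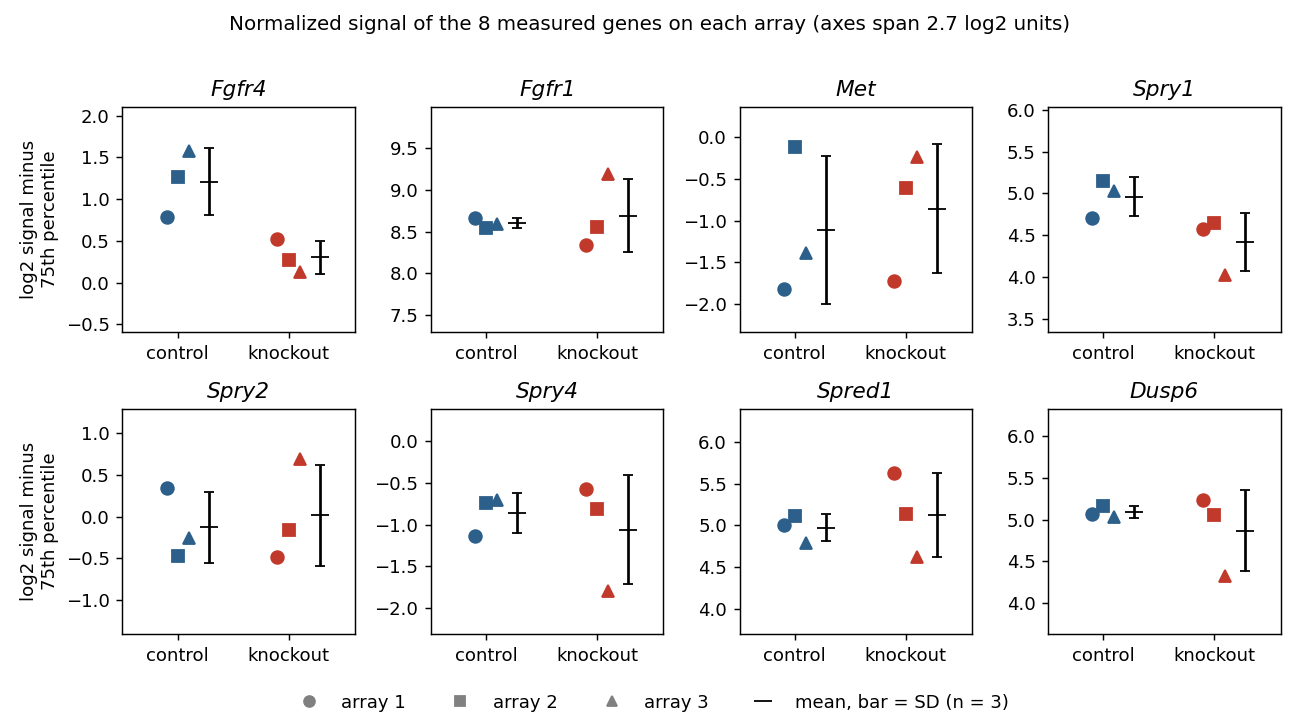
Normalized log2 signal (vertical axis, log2 signal minus the 75th percentile of the array) of the 8 measured genes in control and knockout samples, with 1 point per mouse and the mean with its SD (n = 3) beside each group. Fgfr4 and Spry1 are the 2 panels in which no knockout point reaches a control point, and knockout 3 is the highest or lowest of the 6 arrays in every panel but that of Met.

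Fgfr4, the FGF receptor of myoblasts and regenerating muscle, had the largest difference among the 8. Its probe A_55_P2121871 read 0.52, 0.27 and 0.13 in the knockout samples (1 to 3) and 0.78, 1.27 and 1.57 in the control samples (1 to 3). Every knockout sample lay below every control, with knockout 1 and control 1 nearest to each other. Control cells averaged 1.21 ± 0.40 (SD, n = 3) and knockout cells 0.30 ± 0.20 (SD, n = 3), which left 53.5% of the control signal. The difference of -0.90 (SE 0.26, 95% interval -1.52 to -0.29) did not pass over all features (limma, adjusted p = 0.484). A 2-sided exact permutation test gave 0.1, which no design of this size can go below. Within slide row 2 it was -1.08 (limma, adjusted p = 0.340). A block for the slide row gives that same estimate by construction, since row 1 holds knockout arrays alone (limma, adjusted p = 0.281). A further Fgfr4 probe, A_55_P2120055, read 0.70, 0.073 and 0.16 in the knockout samples and 0.38, 1.43 and 1.28 in the controls. There the groups overlapped, because knockout 1 lay above control 1, and the difference was -0.72 (SE 0.34, limma with every probe kept, adjusted p = 0.739).

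Fgfr1, the main FGF receptor of satellite cells, had small differences on 3 probes. The probe that stood for the gene as its brightest, A_55_P1967015, read 8.34, 8.55 and 9.19 in the knockout samples (1 to 3) and 8.66, 8.55 and 8.60 in the control samples (1 to 3). Its difference was 0.092 (SE 0.26, limma, adjusted p = 0.984), with a 95% interval of -0.52 to 0.71. Knockout 3 was the highest array there, and knockout 1 the lowest. Probe A_55_P1967022 read 2.36, 2.45 and 2.12 against 1.96, 2.76 and 2.43, a difference of -0.070 (SE 0.27), and had knockout 3 below the other knockout arrays. Probe A_55_P2057777 read 3.36, 3.32 and 3.31 against 2.87, 3.60 and 3.01, a difference of 0.17 (SE 0.25). The last 2 probes shared a profile over the controls, low in control 1 and high in control 2, that the brightest probe did not show. Within slide row 2 the brightest probe gave 0.59 (limma, adjusted p = 0.340).

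The sequences of 3 of these probes show how they differ. Probe A_55_P1967022 of Fgfr1 (chr8:26684061-26684120, plus strand, build mm9) and probe A_55_P2121871 of Fgfr4 (chr13:55269212-55269271, plus strand, mm9) can be laid side by side without gaps, where they share 35 of 58 aligned bases (60.3%), which are in capitals here, 5′ to 3′.
Fgfr1: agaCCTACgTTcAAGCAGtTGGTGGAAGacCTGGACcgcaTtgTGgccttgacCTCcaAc
Fgfr4: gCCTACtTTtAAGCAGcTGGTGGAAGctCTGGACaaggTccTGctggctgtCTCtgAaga
The brightest Fgfr1 probe (chr8:26685820-26685879, plus strand, mm9) is of another kind, since 60.0% of its bases are T and 90.0% are T or G. Its last 30 bases show the repeat.
Fgfr1, A_55_P1967015: ttgtttgtttggttggttggttggtctttt
Whether that probe also binds other transcripts was not tested.

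**Figure D2:**
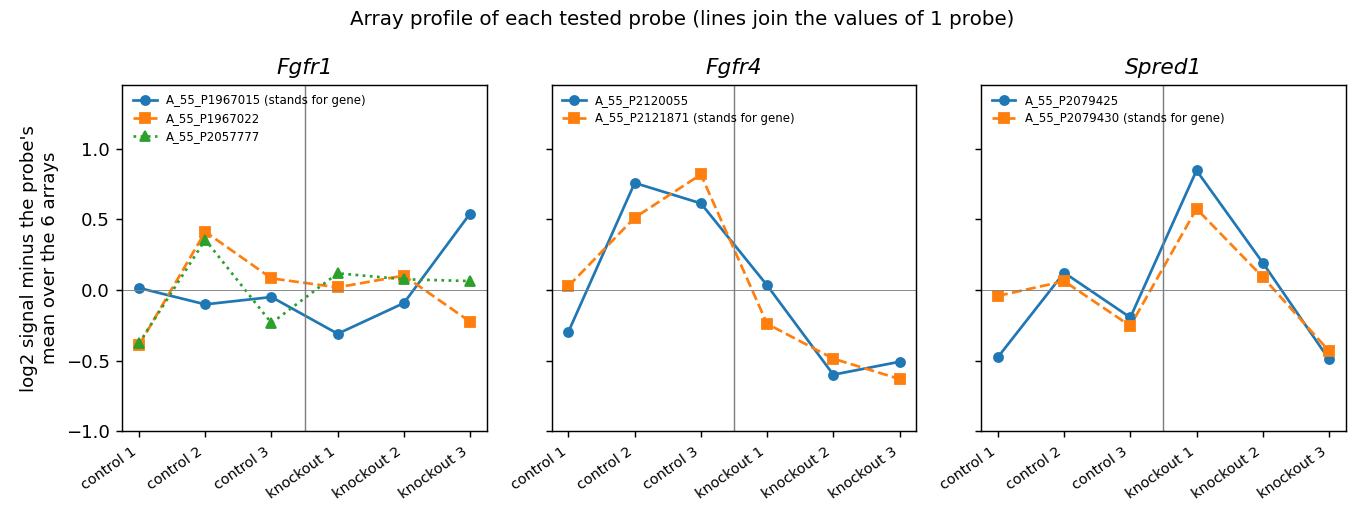
Log2 signal of each tested probe of Fgfr1, Fgfr4 and Spred1 on the 6 arrays, minus that probe's own mean over the arrays (vertical axis), with a line joining the values of 1 probe. The 2 Fgfr4 probes and the 2 Spred1 probes broadly follow each other, whereas the brightest Fgfr1 probe peaks in knockout 3 and the other 2 peak in control 2.

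Fgf2, the FGF ligand best known as a satellite cell mitogen, was not well above background on any array. Its probe A_51_P399845, printed in 10 spots on each array, read -4.22, -4.12 and -3.83 in the knockout samples and -4.56, -4.13 and -2.93 in the controls. Of its 60 spots, 2 were well above background, both in control 3. The probe maps to chr3:37247934-37295153 (plus strand, mm9), a span of 47220 bp for 60 bases, so it crosses a splice junction and reads spliced RNA.
Fgf2: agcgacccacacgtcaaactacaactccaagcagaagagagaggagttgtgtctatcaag
A further Fgf2 probe read between -3.89 and -3.14 and was likewise dim on all 6 arrays. Hgf, which in muscle is made largely by cells other than satellite cells, read between -5.32 and -4.14 and was not well above background on any array. With the floor of measurable probes between -3.15 and -2.46 on these arrays, no fold is given for either ligand.

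Met, the HGF receptor, varied more between mice of a group than between the groups. It read -1.72, -0.61 and -0.24 in the knockout samples (1 to 3) and -1.82, -0.12 and -1.39 in the control samples (1 to 3). The arrays thus fell at a high level (control 2, knockout 3 and knockout 2) and a low one (control 1, control 3 and knockout 1), each with samples of both groups. The difference was 0.26 (SE 0.52, limma, adjusted p = 0.984), with a 95% interval of -0.96 to 1.47. Within slide row 2 it was 0.87 (limma, adjusted p = 0.579). The Met probe is printed in 10 spots on each array, which gives the error of the spots within an array. The SD over the spots of an array ranged from 0.15 to 0.28, whereas the SD of the 6 array means was 0.76 and their range 1.70. The spots share 1 amplified and labelled sample, so their SD leaves out the error of those steps and the source of the spread between arrays was not tested. The probe lies at chr6:17503299-17503358 (plus strand, mm9).
Met: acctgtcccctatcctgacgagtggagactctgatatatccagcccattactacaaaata

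**Figure D3:**
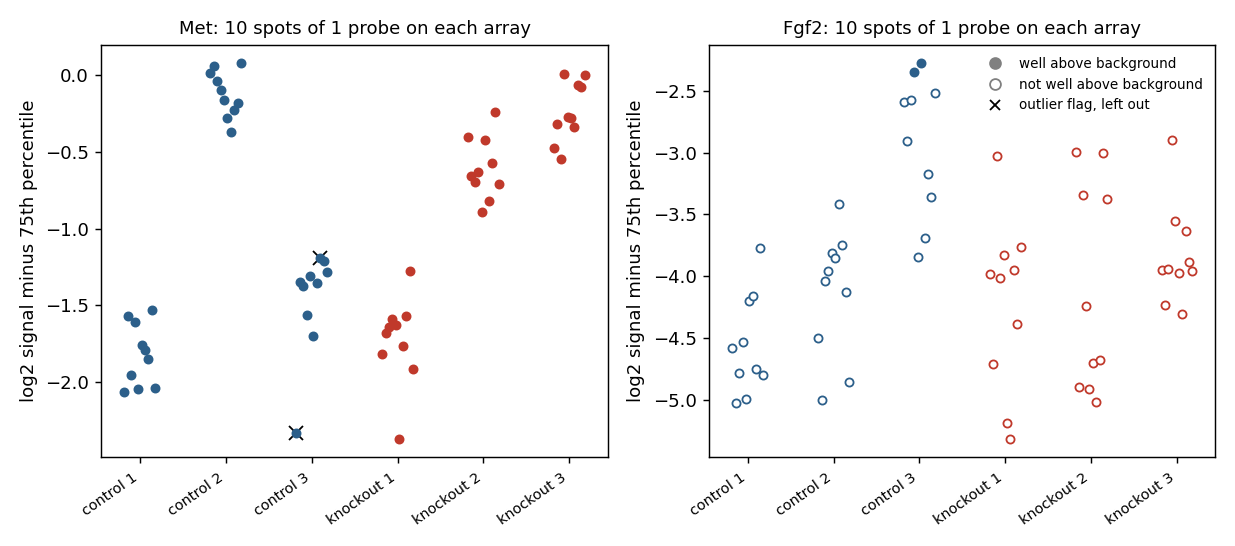
Normalized log2 signal (vertical axis) of the 10 spots of the Met probe (left) and of the repeated Fgf2 probe (right) on each array, with filled points well above background and crosses on spots left out for an outlier flag. The spots of Met lie close together within an array while the arrays differ by up to 1.70, and nearly all Fgf2 spots are open, with the 2 filled ones in control 3.

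Among the brakes, Spry1 was the one whose groups did not overlap. It read 4.58, 4.65 and 4.02 in the knockout samples (1 to 3) and 4.70, 5.15 and 5.03 in the control samples (1 to 3). Knockout 2 and control 1 were separated by little, and knockout 3 lay lowest. Control cells averaged 4.96 ± 0.23 (SD, n = 3) and knockout cells 4.42 ± 0.35 (SD, n = 3), or 68.5% of the control signal. The difference of -0.55 (SE 0.26, 95% interval -1.14 to 0.049) did not pass (limma, adjusted p = 0.770; exact permutation p = 0.1). It was -0.94 within slide row 2 (limma, adjusted p = 0.339, or 0.269 for the same estimate from the block) and -0.35 without knockout 3 (limma, adjusted p = 0.694). The array holds 1 probe for Spry1, at chr3:37543403-37543462 (plus strand, mm9), whose first 30 bases are given.
Spry1: ctcatgtctgaatataacatatcactactt

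The other Sprouty genes showed no such separation. Spry2, a brake of FGF and HGF signalling in many tissues, read -0.48, -0.15 and 0.69 in the knockout samples and 0.34, -0.47 and -0.25 in the controls, a difference of 0.15 (SE 0.36, limma, adjusted p = 0.984). Spry4 read -0.57, -0.81 and -1.80 against -1.14, -0.74 and -0.71, a difference of -0.20 (SE 0.35, limma, adjusted p = 0.984). Knockout 3 was the highest array for Spry2 and the lowest for Spry4, and in each gene the remaining knockout samples lay within or near the control range. Within slide row 2, where knockout 3 stands for its group, the difference was 0.82 for Spry2 and -0.94 for Spry4.

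Spred1, which brings the RAS inhibitor neurofibromin to the membrane, read 5.62, 5.14 and 4.62 in the knockout samples (1 to 3) and 5.00, 5.11 and 4.79 in the control samples (1 to 3). The knockout samples enclosed the controls, and the difference was 0.16 (SE 0.29, limma, adjusted p = 0.984). A further probe, A_55_P2079425, kept the same order among the knockout samples, with 2.76, 2.11 and 1.43 against 1.44, 2.04 and 1.72, a difference of 0.37 (SE 0.36). The direction turned to -0.35 within slide row 2, where knockout 3 is the only knockout sample. The third Spred1 probe, for transcript ENSMUST00000110901, was dim on all arrays. Dusp6, a commonly used readout of ERK activity, read 5.23, 5.05 and 4.32 in the knockout samples and 5.07, 5.17 and 5.03 in the controls. Knockout 1 and 2 lay at the control level and knockout 3 below it, and the difference was -0.22 (SE 0.28, limma, adjusted p = 0.984). Within slide row 2 it was -0.77 (limma, adjusted p = 0.339).

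Knockout 3 was the highest or the lowest of the 6 arrays in 7 of the 8 genes, beside 53.8% of all features. It was the highest for Fgfr1 and Spry2 and the lowest for Fgfr4, Spry1, Spry4, Spred1 and Dusp6. Without it, the sign of the difference turned for Fgfr1 (-0.16), Met (-0.054), Spry2 (-0.19), Spry4 (0.17) and Dusp6 (0.054), none of which passed, whereas Fgfr4 stayed at -0.81.

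**Figure D4:**
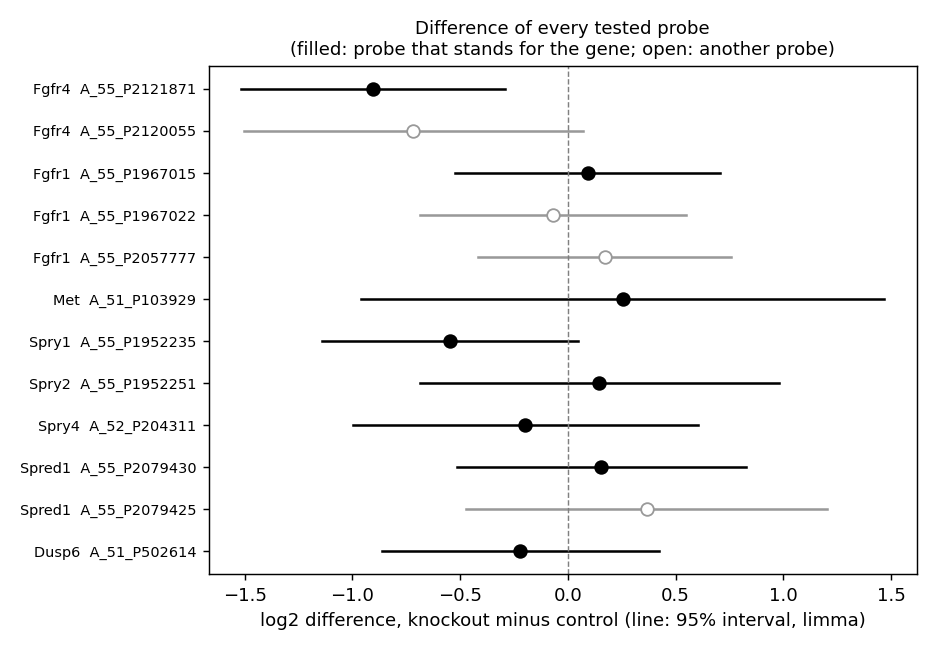
Log2 difference, knockout minus control (horizontal axis), of the 12 tested probes of the 8 genes with its 95% interval from limma. The interval of the filled Fgfr4 probe, -1.52 to -0.29, is the only one of the 12 that leaves out 0.

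The rest of the pathway was read from 8 lists. No gene of any list passed over all features. Of the 100 listed genes that are not members, 85 were measured, with higher means in 30 and lower means in 55. Over all features, 55.8% had higher means. The median of the 85 was -0.10, beside 0.041 over all features. The groups did not overlap for 4 of the 85 with the knockout higher, beside 4.90% of all features. These were Fgf9, Plaur, Cbl and Fosl1. With the knockout lower there were 6, beside 5.72% of all features. These were Sulf1, Sulf2, Gab1, Cblb, Fos and Egr2. Within slide row 2, where knockout 3 stands for its group, list medians were -0.60 for the feedback brakes, -0.48 for the p38 and STAT3 branch, -0.45 for heparan sulphate, -0.42 for the adaptors and kinases, -0.41 for the ERK targets, 0.025 for the FGF receptors and co-receptors, 0.11 for HGF activation and 0.28 for the FGF ligands, beside 0.048 over all features. Leaving out 1 array at a time turned the sign of 3 list medians. The filter on dim probes was applied anew each time, so the genes behind a median could change. The median of the FGF ligands was -0.20 without control 2, where 7 ligands were measured in place of 6. It was between 0.12 and 0.33 without any other array. The median of the adaptors and kinases was 0.0016 without knockout 3, where 21 genes were measured in place of 19. That of the p38 and STAT3 branch ranged from -0.22 to 0.31. Whether a fixed set of genes would turn sign was not tested. The other medians kept their sign and moved by over 1.5 times, between 0.069 and 0.28 for HGF activation, -0.39 and -0.14 for heparan sulphate, -0.39 and -0.027 for the FGF receptors, -0.32 and -0.068 for the feedback brakes, and -0.22 and -0.047 for the ERK targets. The lowest of these sizes came without knockout 3 for HGF activation and heparan sulphate, without control 1 for the FGF receptors, and without control 2 for the feedback brakes and ERK targets.

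Among the FGF ligands, 6 of 10 were measured, 4 with higher and 2 with lower means (median 0.18), and 0 passed in either direction. Fgf9 had a difference of 0.41 (SE 0.25) and Fgf7, a ligand made by mesenchymal cells, one of -0.62 (SE 0.60, well above background in 2 of 3 knockout samples). Of the FGF receptors and co-receptors, 9 of 10 were measured, 3 with higher and 6 with lower means (median -0.21), and 0 passed. Fgfr2 had a difference of 0.21 (SE 0.26) and Klb, the beta-Klotho co-receptor, one of -0.54 (SE 0.36, well above background in 2 of 3 knockout samples). This list holds the members Fgfr1 and Fgfr4.

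The genes that store, release and activate HGF were measured in 7 of 11, with higher means in 5 and lower means in 2 (median 0.26), and 0 passed. The list holds the member Met, whose own difference is that median. Plaur, the urokinase receptor, which gathers at the cell surface the protease that can activate HGF, read 3.38, 3.59 and 3.31 in the knockout samples and 2.77, 2.38 and 2.53 in the controls. All knockout samples lay above all controls, and the difference of 0.87 (SE 0.21) did not pass (limma, adjusted p = 0.401). Spint2, an inhibitor of HGF-activating proteases, had a difference of -0.12 (SE 0.26).

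Of 17 genes for heparan sulphate proteoglycans and the enzymes that build or trim their chains, 16 were measured, with higher means in 3 and lower means in 13 (median -0.27), and 0 passed. Sulf1, an endosulphatase that removes sulphate from the chains FGFs bind, read 6.09, 6.24 and 5.95 in the knockout samples and 6.58, 6.89 and 6.60 in the controls (difference -0.60, SE 0.21, limma, adjusted p = 0.604). Its relative Sulf2, named after its value was seen, had a difference of -0.73 (SE 0.29, limma, adjusted p = 0.658), again with no overlap between the groups. Sdc4, a syndecan of satellite cells, had a difference of 0.48 (SE 0.34).

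Downstream, 19 of 21 adaptors and RAS-ERK kinases were measured, with higher means in 5 and lower means in 14 (median -0.079), and 0 passed. Gab1, the docking protein that MET uses, read 3.46, 3.47 and 3.49 in the knockout samples and 3.76, 4.32 and 4.01 in the controls, a difference of -0.56 (SE 0.22, limma, adjusted p = 0.658). Map2k2, which encodes an ERK kinase, had a difference of 0.62 (SE 0.33). In the p38 and STAT3 branch, 7 of 8 were measured, 4 with higher and 3 with lower means (median 0.023), and 0 passed. Stat3 had a difference of 0.33 (SE 0.25) and Map2k6 one of -0.30 (SE 0.25).

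The list of feedback brakes, which holds 5 of the members, was measured in 14 of 18, with higher means in 5 and lower means in 9 (median -0.19), and 0 passed. Cblb, a ubiquitin ligase that ends receptor signalling, read 0.44, 0.34 and 0.32 in the knockout samples and 1.15, 1.05 and 1.25 in the controls. The groups lay well apart, and the difference of -0.78 (SE 0.20) did not pass (limma, adjusted p = 0.401). Its paralog Cbl had a difference of 0.29 (SE 0.21). Of the ERK target transcripts, all 15 were measured, 5 with higher and 10 with lower means (median -0.093), and 0 passed. Ccnd1, which encodes cyclin D1, read 2.57, 1.83 and 1.08 against 2.56, 2.77 and 3.45, a difference of -1.10 (SE 0.41, limma, adjusted p = 0.619). Fosl1, a late AP-1 factor, had a difference of 0.74 (SE 0.25, limma, adjusted p = 0.576). Etv4 and Etv5, ETS factors often used as readouts of FGF signalling and named after their values were seen, had differences of -0.20 (SE 0.24) and -0.15 (SE 0.22). Etv1, an ETS factor of the same list also named after its value was seen, went the other way at 0.048 (SE 0.37).

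**Figure D5:**
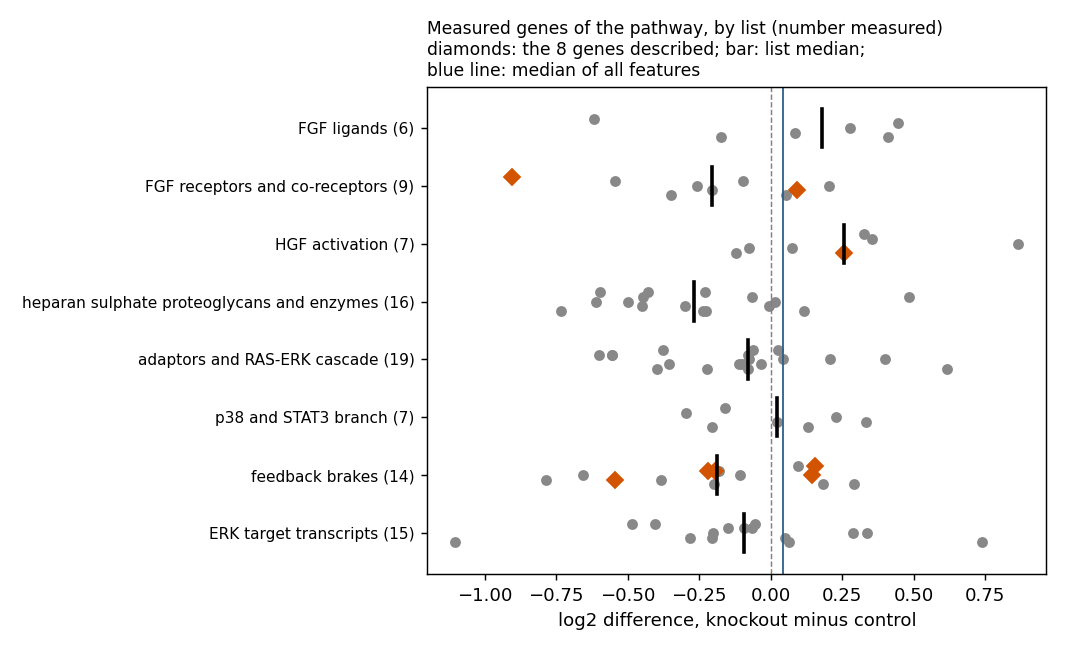
Log2 difference, knockout minus control (horizontal axis), of each measured gene of the 8 lists, with the number measured in brackets, diamonds for the described genes, a bar for the list's median and a line for the median of all features (0.041). The heparan sulphate list has the lowest median of the 8, at -0.27, and the HGF activation list the highest, at 0.26, which is the value of the member Met.

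No cell type marker passed the threshold, and the summed level of a marker list separated the groups in 2 of 9 lists, those of fibro-adipogenic progenitors and red blood cells. The marker genes given here were chosen after their values were seen. All 8 satellite cell markers were measured, 4 with higher and 4 with lower knockout means. Calcr, the calcitonin receptor of quiescent satellite cells, read -0.38, 0.25 and 0.048 in the knockout samples and 0.64, 1.38 and 1.02 in the controls (difference -1.04, SE 0.28, limma, adjusted p = 0.432). Myf5 was not well above background on any knockout array and passed the filter on dim probes through the control arrays alone. Its knockout mean was at least 2.23-fold lower than its control mean. That bound is set by the lowest measurable signal of each array and leaves out the spread between mice. Pax7 had a difference of 0.17 (SE 0.34, well above background in 2 of 3 knockout samples). Among the 8, the groups did not overlap for Calcr, lower in the knockout, beside 5.72% of all features lower. Myf5 was lower without overlap as well but is left out of that comparison, since it passed the filter through the control arrays alone. The summed level of the 8 markers, to which the bright Vcam1 adds most, was 4.92 to 5.66 in knockout and 5.26 to 5.43 in control samples. With the 8 weighted equally, the mean of their log2 values was -0.30 to 0.14 in knockout and -0.10 to 0.69 in control samples. The 7 markers of fibro-adipogenic progenitors, the connective tissue precursors of muscle, were all measured, 3 with higher and 4 with lower knockout means. Their summed level, to which the bright Col1a1 adds most, was 8.78 to 8.91 in knockout and 9.10 to 9.79 in control samples. The mean of their log2 values, which weights the 7 equally, overlapped at 3.95 to 4.51 and 4.15 to 4.70. Col1a1 was lower on every knockout array (difference -0.71, SE 0.27), whereas Dpt (0.33, SE 0.26), Lum (0.36, SE 0.34) and Ly6a (0.30, SE 0.68) had higher knockout means. Of 6 red blood cell markers, 3 were measured, with a summed level of 2.77 to 3.91 in knockout and 1.17 to 2.68 in control samples. The mean of their log2 values was 0.93 to 1.66 in knockout and -0.47 to 0.65 in control samples. Hba-a1 was higher on every knockout array (difference 1.88, SE 0.44). The groups overlapped for Hbb-bs (1.77, SE 0.72) and Slc4a1 (-0.0078, SE 0.63). The 6 endothelial markers were measured at 4.65 to 5.95 and 4.68 to 6.37. Of 6 neutrophil markers, 3 were measured, all with higher knockout means: S100a8 (2.26, SE 1.52), Camp (0.86, SE 0.59) and Ly6g (0.42, SE 0.63). S100a8 and Camp were well above background in 2 of 3 knockout samples. In knockout 3, S100a8 read -4.09, below that array's floor of -2.46. The summed level of the 3 markers was 2.34 in knockout 1, 3.07 in knockout 2 and -0.53 in knockout 3, against -0.26 to 1.04 in the controls. S100a9, Mpo and Retnlg did not pass the filter on dim probes. Of 6 muscle fibre genes, Acta1 (-0.18, SE 0.24) and Tnnt3 (-0.086, SE 0.53) were measured, with a summed level of 2.81 to 3.97 in knockout and 3.48 to 3.70 in control samples, and Ckm, Myh4, Myh1 and Mb did not pass that filter. The part of other cell types in the Fgfr4 and Spry1 values was not tested.

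The features whose profile over the 6 arrays lay closest to a member, by root mean square distance of centred log2 values among the 19300 features, were found for the 5 members that varied more than the median feature. For Fgfr4 they were Thy1, a surface glycoprotein of fibroblasts and other cells, at 0.071, and Dbt, of branched-chain amino acid breakdown, at 0.074. For Spry1 they were Atg7, an autophagy enzyme, at 0.043, and Irs1, an adaptor of the insulin and IGF receptors, at 0.059. Spry4 lay closest to Sgpp1 (0.050) and to Id3, an inhibitor of bHLH factors (0.064), and Met to A930018M24Rik (0.12) and Wdr46 (0.14). Spry2 lay closest to Fbxw22 (0.077) and to a feature with no gene symbol (0.084). No test was made of these likenesses.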

How the data were processed

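RNA of 3 knockout and 3 control samples was amplified, labelled with Cy3 and hybridized to 1-colour Agilent arrays; the labels give 3 mice and 3 arrays per group. The deposited scanner files hold linear intensity values from Agilent Feature Extraction 10.7.1.1, per the file headers (9.5.1.1 per the submitters' processing notes), corrected for background and spatial trend and not normalized across arrays. A value table, also deposited, has linear intensity with the same quantiles on every array (median 17.7).

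Log2 processed signals were scaled by the 75th percentile of all non-control spots of the array. Spots with outlier flags were left out, spots of a probe were averaged, and no spot was saturated (0 in all). A probe was well above background where at least 50% of its spots were. It was tested where this held on all 3 arrays of a group, and the brightest tested probe stood for its gene. Gene names came from the files, updated through 27229 accessions matched to RefSeq (GRCm38.p6, for names alone); coordinates are those of the files. Probes with no name (2744) stood for themselves. The 26111 tested probes gave 19300 features, fitted with limma 3.58.1 (lmFit, eBayes) in R 4.3.3, with Benjamini-Hochberg adjustment over all features. The median SE was 0.27; the number of arrays limits the precision.

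The members and lists were chosen with earlier results of these data known. By rule, the named genes are the members, Psmc4, the non-member of each list with the smallest p in each direction, and the 2 nearest features of variable members. Outside it, Sulf2, Fos, Egr2, Etv1, Etv4, Etv5 and some cell type markers were named after their values were seen. Nudt6 and Spata5 were named for their position. Alternatives changed background correction, scaling, filter, probe choice, variance model, blocks and arrays.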

Additional observations from a re-analysis of the deposited data

How the results depend on the processing

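Under 19 alternatives, no member passed the threshold; slide row 2 alone and the slide row block give 1 and the same estimate. The sign of Fgfr4 (-1.12 to -0.66, limma, adjusted p from 0.281 to 0.879) and of Spry1 (-0.94 to -0.35, limma, adjusted p of 0.269 or more) held in each. The sign of the other tested members turned in at least 1 alternative. Spred1 turned to -0.35 in both slide row settings, and Fgfr1 to -0.070 on another probe. Leaving out each array in turn gave -0.16 to 0.27 for Fgfr1, -0.100 to 0.75 for Met, -0.092 to 0.41 for Spred1, -0.19 to 0.40 for Spry2, -0.44 to 0.17 for Spry4 and -0.40 to 0.054 for Dusp6. The number of features past the threshold, 0 in the reported fit with 1371 at an unadjusted p under 0.05, was 1 with the deposited table, 1 with quantile normalization, 2 with median scaling, 3 with an intensity trend and robust moderation, and 41 within slide row 2 (40 higher, 1 lower); the cause was not tested. It was 0 without each single array.

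Replicate numbers did not pair the samples: the deviations of same-numbered samples correlated at 0.071, -0.016 and 0.091. With the number as a replicate block, 0 features and 0 members passed, and 1427 features had an unadjusted p under 0.05. Signal over background limits Fgf2 and Hgf, which were tested only without the filter on dim probes (limma, adjusted p = 0.990 and 0.996).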

Other observations

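Fgf2 and Spry1 lie on the same chromosome, 3, and their probes are 248 kb apart in build mm9. By RefSeq's annotation, 5 genes lie between them, 2 of them protein coding, Nudt6 and Spata5, named here for their position. Nudt6, a Nudix hydrolase gene next to Fgf2, had a difference of -0.051 (SE 0.35, well above background in 2 of 3 knockout samples), and Spata5, which encodes an ATPase of the AAA family, one of -0.38 (SE 0.39). Both had groups that overlapped, and neither passed the threshold (limma, adjusted p = 0.992 and 0.980).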
